A study of Rattus norvegicus with 9 samples.

Results

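A group of 35 protein-coding genes had higher RNA in both doxorubicin groups of a rat nucleus pulposus cell study than in its control. The genes were chosen from these same libraries: the mean CPM (counts of a gene scaled to the library's total) had to be at least 2 times that of NC in BNPMT and in SEN, with at least 2 CPM in both. The count file lists 22324 genes, of which 17949 were protein-coding and 44 of these met the numbers. Another 9 of the 44 were left out by name and are given under the other observations. BNPMT libraries came from cells with doxorubicin-induced senescence that had received an intervention called BNPMT, SEN libraries from cells with doxorubicin-induced senescence, and NC libraries from the control cells, with 3 libraries in each group. All cells were WT primary nucleus pulposus cells, which form the soft centre of the disc between vertebrae, grown in high-glucose medium with 10% serum. Per the labels, senescence was induced with doxorubicin at 200 nM over 24 h, followed by 6 days in new medium. That text stands on NC as well, and NC was taken as untreated from its title and the design text of the series. What BNPMT is, its dose and its timing are not given in the labels, nor are the strain and age of the rats. The labels do not say that libraries of a group came from separate cultures, so p-values rest on how far single libraries differ, which can be technical variation.

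Doxorubicin is an anthracycline that traps topoisomerase on DNA and breaks it, and it also redox-cycles and binds iron. Cells answer such compounds with export pumps of the ABC family, with metallothioneins that hold zinc and copper, with ferritin that stores iron, and with enzymes that clear reactive aldehydes. Nucleus pulposus cells make the aggrecan and collagen of the disc core and live at low oxygen. Senescent cells stay alive without dividing and often secrete chemokines.

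The 4 promoters below belong to the transporter pair with the widest gap between BNPMT and SEN and to the metallothionein pair, whose order of BNPMT and SEN differed. They are the 250 bases before the transcription start in RefSeq's GRCr8 assembly, all on the minus strand and written 5′ to 3′. Abcb4 lies at chr4:26164146-26164395, Abcb1b at chr4:26280030-26280279, Mt1 at chr19:10832976-10833225 and Mt2A at chr19:10838709-10838958. Capitals mark CCAAT and GGGCGG (the CCAAT and GC boxes) in both Abcb genes, and the core of the metal response element (TGCACNC or TGCGCNC) and TATAAA in both Mt genes, on either strand.
Abcb4: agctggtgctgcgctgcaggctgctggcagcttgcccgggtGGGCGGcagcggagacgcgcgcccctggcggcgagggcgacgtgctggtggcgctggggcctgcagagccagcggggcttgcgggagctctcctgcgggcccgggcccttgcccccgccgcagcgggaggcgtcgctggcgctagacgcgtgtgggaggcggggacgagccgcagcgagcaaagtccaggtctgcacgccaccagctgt
Abcb1b: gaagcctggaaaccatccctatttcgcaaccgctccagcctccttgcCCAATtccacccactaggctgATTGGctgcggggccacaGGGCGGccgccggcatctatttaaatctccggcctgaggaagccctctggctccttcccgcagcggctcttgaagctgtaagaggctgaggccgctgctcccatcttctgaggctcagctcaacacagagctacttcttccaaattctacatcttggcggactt
Mt1: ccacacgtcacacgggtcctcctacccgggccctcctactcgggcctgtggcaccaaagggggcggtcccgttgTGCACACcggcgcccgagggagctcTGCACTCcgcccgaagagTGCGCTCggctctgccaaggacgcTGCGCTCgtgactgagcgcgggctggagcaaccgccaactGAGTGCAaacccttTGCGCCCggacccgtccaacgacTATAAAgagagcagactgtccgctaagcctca
Mt2A: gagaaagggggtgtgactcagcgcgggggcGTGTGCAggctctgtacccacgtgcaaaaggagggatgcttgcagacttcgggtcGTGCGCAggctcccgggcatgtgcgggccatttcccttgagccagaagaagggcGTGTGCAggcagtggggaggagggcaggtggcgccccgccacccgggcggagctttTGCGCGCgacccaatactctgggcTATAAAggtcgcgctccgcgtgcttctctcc
Mt1 held 6 matches to the metal response core, from 176 to 49 bases before the start, and Mt2A held 4, from 220 to 49 bases before it. Each also had TATAAA, 32 to 27 bases before the start in Mt1 and 31 to 26 in Mt2A. Abcb1b had 2 CCAAT matches and 1 GC box, and Abcb4 had 0 CCAAT matches and 1 GC box. Promoters of 28 of the 35 genes were in the RefSeq table, at 300 bases that run 50 bases past the start. Of these 2 held 4 or more metal response matches (7.14%), and they were Mt1 and Mt2A themselves. The cutoff of 4 is the count of Mt2A, so this share is a description and not a test. As many matches stood in 68 of 8810 promoters of genes at 2 CPM or more in BNPMT and SEN (0.772%). Over all promoters it was 125 of 27457 (0.455%). A match is a run of letters and not a measured site.

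Other runs of letters were counted in the same 300 bases on both strands. At least 1 metal response core stood in 35.7% of the 28 promoters, against 37.5% of the 8810. TATAAA stood in 28.6% against 6.24% (14.3% of all promoters), ACGTG, the hypoxia response core, in 46.4% against 26.6%, and GGGCGG in 71.4% against 65.5%. TGACNNNGC, an antioxidant response core, stood in 28.6% against 14.8%, and TGANTCA, the AP-1 site, in 17.9% against 4.56%; the last pair of motifs can overlap, as they do in Mt2A. CCAAT stood in 35.7% against 38%, TCACNCCAC, a sterol response element, in 3.57% against 1.14%, and TGACGTCA, the cAMP response element, in 3.57% against 3.42%. No test was made of these shares.

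Total counts per library were 35094282 to 41971877 in BNPMT, 31206834 to 38391586 in SEN and 34514440 to 41873790 in NC. The disc genes Acan and Col2a1 were at 322 and 1962 CPM in BNPMT, 681 and 6492 CPM in SEN and 587 and 4571 CPM in NC, while the notochordal marker Tbxt was near 0, with 5, 5 and 11 counts in the 3 groups. Of other genes looked up for cell identity, Sox9 and Cd24 were at 31.5 and 29.9 CPM in NC. The keratins Krt8, Krt18 and Krt19 were lower there, at 4.16, 0.0162 and 0.236 CPM. The smooth muscle gene Myh11 was at 40.7 CPM in BNPMT, 6.70 CPM in SEN and 110 CPM in NC. The part of cell identity in the group differences was not tested. BNPMT 1 and SEN 1 stood apart from the other libraries of their groups. How far a gene in one library lay from its group went with transcript length (Spearman correlation 0.68 for BNPMT 1 and -0.57 for SEN 1, across 11271 genes), and results are given with and without these libraries where that changes them. The scale also mattered. Over 14956 genes tested the median log2 change of BNPMT against SEN was 0.02 with TMM scaling, which takes most genes as unchanged, and 0.52 with total counts alone, and that of SEN against NC was -0.01 with TMM and -0.46 with total counts. CPM values in the text follow total counts, and log2 changes with an adjusted p follow TMM unless total counts are named.

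The 35 genes took 0.472% to 0.536% of all counts in BNPMT libraries, 0.691% to 0.711% in SEN libraries and 0.223% to 0.233% in NC libraries. BNPMT over NC ratios ran from 2.02 to 9.44 with a median of 2.36, and SEN over NC ratios from 2.02 to 113 with a median of 3.21. Among 10616 protein-coding genes at 2 CPM or more in BNPMT and SEN, 1.46% reached 2 times NC in BNPMT, 7.18% in SEN and 0.414% in both. Every BNPMT library and every SEN library lay above every NC library for all 35 genes. The rule asked for this difference, so it is a description and no test was made of it. In bulk RNA, fewer cells that make a transcript and less of it per cell cannot be told apart.

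**Figure D1:**
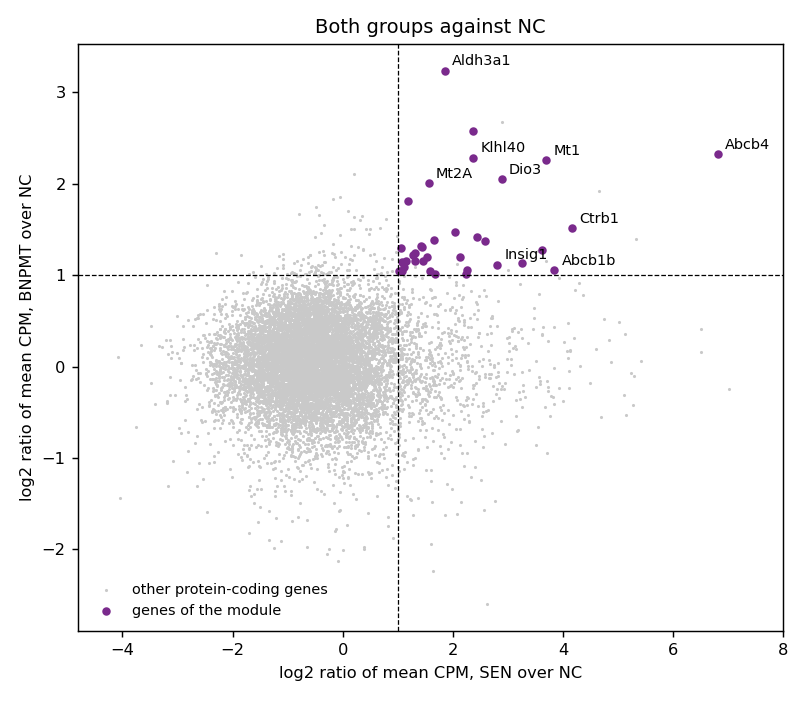
Log2 ratio of mean CPM of BNPMT over NC (vertical axis) against that of SEN over NC (horizontal axis) for 10616 protein-coding genes. The 35 genes (large points) lie right of and above the dashed lines at 2 times NC, where 9 genes left out by name also lie as small points, with Aldh3a1 highest in BNPMT (9.44 times NC) and Abcb4 farthest right in SEN (113 times NC).

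The genes at the edge of the rule had a smaller ratio close to 2. Just inside were Msmo1 (2.02, from SEN), Gpr15lg (2.02, from BNPMT) and Ch25h (2.02, from BNPMT). Just outside were Prr5l (1.98), Cdo1 (1.98) and Irf7 (1.99), each by its BNPMT ratio. The smaller ratio lay between 2 and 2.2 for 12 of the 35 genes, and between 1.8 and 2 for 18 protein-coding genes outside the rule, not counting those left out by name. Without BNPMT 1 and SEN 1 the rule gave 32 genes, 28 of them among the 35, and Abcb1b, Ak4, Ch25h, Crabp2, Doc2a, Msmo1 and RGD1563601 missed it. With every BNPMT and SEN library at 2 times the highest NC library or more, 13 of the 35 remained, among them Abcb4, Aldh3a1, Insig1, Mt1, Mt2A, Dio3, Klhl40 and Hmga1.

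The transporter genes Abcb4 and Abcb1b showed the widest gap between the doxorubicin groups. Abcb4 encodes the phospholipid translocator MDR2 of rodents, and Abcb1b a P-glycoprotein, the multidrug exporter for which doxorubicin is a classical substrate. Abcb4 was at 5.26, 3.96 and 4.29 CPM in BNPMT libraries, 96.1, 104 and 104 CPM in SEN libraries and 0.811, 0.593 and 1.29 CPM in NC libraries. Abcb1b was at 72.4, 61.2 and 62.9 CPM in BNPMT libraries, 423, 464 and 467 CPM in SEN libraries and 32.7, 31 and 30.8 CPM in NC libraries. For both genes the 3 groups did not overlap, with SEN highest and NC lowest. BNPMT was lower than SEN by a log2 change of -4.99 ± 0.13 for Abcb4 (SE, adjusted p = 3.62e-13) and -3.29 ± 0.07 for Abcb1b (adjusted p = 6.28e-14). Abcb4 and Abcb1b are neighbours in the RefSeq gene order, and the next gene is Abcb1a, which encodes the other rat P-glycoprotein. Abcb1a was not in the group: it averaged 5.27 ± 0.470 CPM in BNPMT, 21.7 ± 2.59 CPM in SEN and 10.1 ± 1.49 CPM in NC (SD, n = 3 each). Its log2 change was -0.99 ± 0.13 in BNPMT against NC (adjusted p = 3.92e-05) and 1.56 ± 0.12 in SEN against NC (adjusted p = 3.28e-08). Abcb1b and Abcb1a are close paralogs, and how reads shared between them were counted is not given in the sources used here.

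The metallothioneins Mt1 and Mt2A, small cysteine-rich proteins that bind zinc, copper and cadmium, differed in which doxorubicin group was higher in CPM. Mt1 was at 30.6, 39.2 and 37.9 CPM in BNPMT libraries, 105, 93.9 and 91.5 CPM in SEN libraries and 6.37, 7.78 and 8.31 CPM in NC libraries. Mt2A was at 67.2, 80.6 and 84.7 CPM in BNPMT libraries, 66.5, 52.9 and 50.9 CPM in SEN libraries and 18.5, 20.2 and 19.1 CPM in NC libraries. BNPMT and SEN did not overlap for either gene, with SEN above BNPMT for Mt1 and BNPMT above SEN for Mt2A, where BNPMT 1 and SEN 1 nearly met. Mt1 was lower in BNPMT by a log2 change of -1.94 ± 0.10 (adjusted p = 8.8e-10). For Mt2A the direction depended on the scale: the log2 change was -0.06 ± 0.11 with TMM (adjusted p = 0.641), 0.45 ± 0.10 with total counts (adjusted p = 0.00114) and 0.19 with TMM when BNPMT 1 and SEN 1 were left out (adjusted p = 0.00604). The genes lie next to each other in the RefSeq order, and the next gene, Mt3, was near 0 in all groups.

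Ferritin light chain, the subunit that promotes iron mineral formation in the ferritin shell, was the most abundant product. Ftl1 had a mean of 2762 FPKM in BNPMT, 2790 FPKM in SEN and 1296 FPKM in NC, the highest of the 35 per transcript length (FPKM, CPM per kilobase of transcript). In counts it was at 2249, 2684 and 2656 CPM in BNPMT libraries, 2555, 2473.5 and 2639 CPM in SEN libraries and 1233, 1132 and 1196 CPM in NC libraries. BNPMT and SEN overlapped, and both lay above NC. The log2 change of BNPMT against SEN was -0.52 ± 0.07 with TMM (adjusted p = 1.24e-05) and, when scaled by total counts, -0.01 ± 0.07 (adjusted p = 0.840). Another 4 of the 35 genes are annotated as ferritin light chain copies: Ftl1l1, LOC100359668, LOC100360087 and RGD1560687, at 1.12 to 4.87 CPM in NC. Their SEN over NC ratios of 2.21 to 2.76 lay near the 2.15 of Ftl1, and reads of Ftl1 could have been assigned to these near-identical copies, so their own levels are uncertain. Fth1, the ferritin heavy chain, missed the rule, with 1468 ± 185 CPM in BNPMT, 1486 ± 123 CPM in SEN and 811 ± 34.8 CPM in NC.

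Aldh3a1, an aldehyde dehydrogenase that oxidizes reactive and aromatic aldehydes, was the one gene that passed the test as higher in BNPMT than in SEN with both scales. It was at 10.6, 11.1 and 10.0 CPM in BNPMT libraries, 3.88, 4.61 and 3.65 CPM in SEN libraries and 1.04, 1.41 and 0.907 CPM in NC libraries. The 3 groups did not overlap, with BNPMT highest. Its log2 change in BNPMT against SEN was 0.88 ± 0.14 with TMM (adjusted p = 4.61e-05) and, when scaled by total counts, 1.39 ± 0.14 (adjusted p = 4.66e-07). Kcnn4, a calcium-activated potassium channel, averaged 6.10 ± 0.681 CPM in BNPMT, 3.95 ± 0.233 CPM in SEN and 1.74 ± 0.237 CPM in NC, without overlap. Its log2 change in BNPMT against SEN was 0.12 ± 0.14 with TMM (adjusted p = 0.423) and, when scaled by total counts, 0.63 ± 0.14 (adjusted p = 0.000869).

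Of the sterol genes, Insig1, which encodes the endoplasmic reticulum protein that holds back SREBP and so restrains cholesterol synthesis, was lower in BNPMT than in SEN, whereas Msmo1, a demethylating oxidase of that synthesis, overlapped between them. Insig1 was at 487, 474 and 488 CPM in BNPMT libraries, 1559.9, 1572 and 1558 CPM in SEN libraries and 219, 226 and 224 CPM in NC libraries. The groups were far apart relative to the spread between libraries, with SEN highest. The log2 change of Insig1 in BNPMT against SEN was -2.20 ± 0.05 (adjusted p = 6.42e-14). Msmo1 was at 609, 670 and 653 CPM in BNPMT libraries, 647, 634 and 604 CPM in SEN libraries and 303, 311 and 318 CPM in NC libraries, and its log2 change in BNPMT against SEN was -0.47 ± 0.06 with TMM (adjusted p = 3.41e-06) and, when scaled by total counts, 0.04 ± 0.05 (adjusted p = 0.536). Ch25h, which makes an oxysterol that also holds back SREBP, averaged 3.56 ± 0.425 CPM in BNPMT, 8.33 ± 1.28 CPM in SEN and 1.76 ± 0.171 CPM in NC, and was lower in BNPMT than in SEN (log2 change -1.73 ± 0.15, adjusted p = 8.97e-08).

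Sqle, Hmgcs1 and Insig2, other genes of the sterol route, had their lowest mean CPM in SEN, although Hmgcs1 was higher in SEN than in NC with TMM (log2 change 0.19 ± 0.07, adjusted p = 0.0235) and, when scaled by total counts, lower (-0.26, adjusted p = 0.00364). Sqle, squalene epoxidase, averaged 238 ± 7.25 CPM in BNPMT, 68.5 ± 4.99 CPM in SEN and 126 ± 2.70 CPM in NC, and was higher in BNPMT than in SEN (log2 change 1.29 ± 0.06, adjusted p = 2.68e-10). Hmgcs1, an early enzyme of the same route, averaged 623 ± 9.48 CPM in BNPMT, 301 ± 32.4 CPM in SEN and 361 ± 20.5 CPM in NC. Insig2, a paralog of Insig1, averaged 24.7 ± 1.70 CPM in BNPMT, 8.59 ± 1.07 CPM in SEN and 17.0 ± 0.613 CPM in NC.

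**Figure D2:**
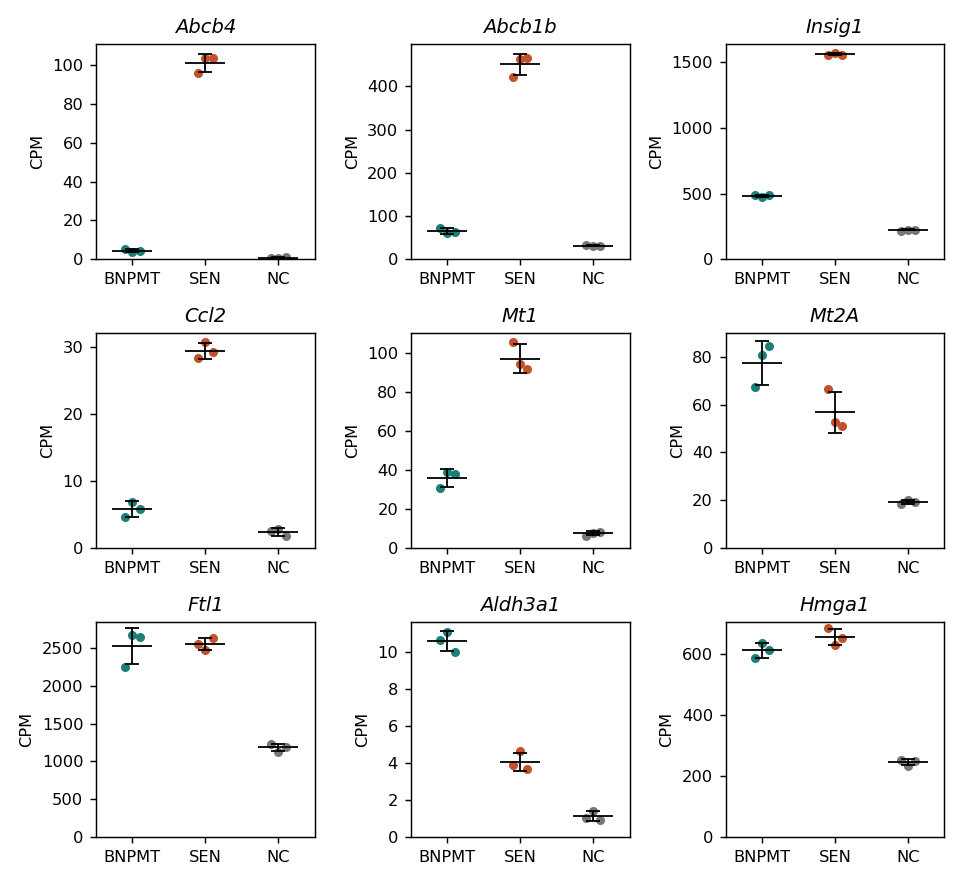
CPM of single libraries (points) with the group mean (line) and SD (bar) for genes of the group, each panel with its own axis from 0. Abcb4, Abcb1b and Insig1 are highest in SEN, Aldh3a1 is highest in BNPMT, and every BNPMT and SEN point lies above the NC points.

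The genes of secreted signals were Ccl2, Ccl7, Adm, Gpr15lg and Angptl4, of which Ccl2, Adm and Gpr15lg were lower in BNPMT than in SEN with both scales. Ccl2, a chemokine that attracts monocytes, was at 4.64, 6.95 and 5.86 CPM in BNPMT libraries, 28.4, 30.7 and 29.3 CPM in SEN libraries and 2.61, 2.84 and 1.77 CPM in NC libraries. The 3 groups did not overlap, and the log2 change in BNPMT against SEN was -2.85 ± 0.15 (adjusted p = 5.16e-10). Its neighbour Ccl7, a related chemokine, averaged 3.83 ± 0.728 CPM in BNPMT, 4.19 ± 0.253 CPM in SEN and 1.54 ± 0.146 CPM in NC, with overlap between BNPMT and SEN and a log2 change of -0.64 ± 0.16 with TMM (adjusted p = 0.00247) and, when scaled by total counts, -0.13 ± 0.16 (adjusted p = 0.443). Adm, the vasodilator peptide adrenomedullin, averaged 53.8 ± 0.632 CPM in BNPMT, 102 ± 4.38 CPM in SEN and 23.5 ± 1.54 CPM in NC, and was lower in BNPMT than in SEN (log2 change -1.43 ± 0.06, adjusted p = 8.15e-11). Gpr15lg, a chemoattractant made by epithelia, averaged 24.8 ± 2.29 CPM in BNPMT, 39.2 ± 2.88 CPM in SEN and 12.2 ± 0.147 CPM in NC. Angptl4, an inhibitor of lipoprotein lipase, averaged 5.58 ± 0.353 CPM in BNPMT, 5.84 ± 0.336 CPM in SEN and 2.36 ± 0.628 CPM in NC.

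Cd80, a costimulatory ligand of antigen-presenting cells, averaged 5.25 ± 0.426 CPM in BNPMT, 6.38 ± 1.24 CPM in SEN and 2.01 ± 0.150 CPM in NC. A list of macrophage and leukocyte markers, none of them in the group, had its highest summed level in SEN. Of its 28 genes 20 were in the table, and the sum was 24.6 to 27.4 CPM in BNPMT libraries, 56.4 to 61.1 CPM in SEN libraries and 19.1 to 19.5 CPM in NC libraries. Of the defining markers, Adgre1 had 0, 0 and 1 counts and Tyrobp 0, 0 and 2 counts over the BNPMT, SEN and NC libraries. Cd68 was at 0.527 CPM in BNPMT, 22.6 CPM in SEN and 0.464 CPM in NC, and Itgam had 0, 417 and 0 counts over the 3 groups. Itgax, also on the list, met the numbers of the rule and was left out of the group only by its name. It averaged 2.84 CPM in BNPMT, 16.5 CPM in SEN and 1.27 CPM in NC. Of the 20 genes 12 had their highest mean in SEN, while Cd14, Laptm5, Coro1a and Fcer1g were lowest there, with Cd14 at 16.6 CPM in BNPMT, 4.04 CPM in SEN and 11.4 CPM in NC. Of 11 tested genes of the list 4 were higher and 6 lower in BNPMT than in SEN on both scales. The part of such cells in the levels of Ccl2, Ccl7 and Cd80 was not tested.

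Enzymes and binding proteins came next. Ctrb1, a chymotrypsinogen known as a pancreatic protease precursor, was at 2.63, 3.65 and 3.14 CPM in BNPMT libraries, 22.4, 17.9 and 19.1 CPM in SEN libraries and 1.36, 0.815 and 1.12 CPM in NC libraries. Dio3, the deiodinase that inactivates thyroid hormone, was at 102, 106 and 111 CPM in BNPMT libraries, 200, 179 and 189 CPM in SEN libraries and 25.5, 28.1 and 23.4 CPM in NC libraries. Both genes were highest in SEN, without overlap of any pair of groups. BNPMT was lower than SEN by a log2 change of -3.17 ± 0.15 for Ctrb1 (adjusted p = 2.39e-10) and -1.34 ± 0.07 for Dio3 (adjusted p = 8.76e-10). Dio2, the activating deiodinase, showed another order, at 6.48 ± 0.825 CPM in BNPMT, 0.867 ± 0.293 CPM in SEN and 2.28 ± 0.211 CPM in NC. Cstb, an inhibitor of cysteine cathepsins, averaged 220 ± 27.0 CPM in BNPMT, 210 ± 14.4 CPM in SEN and 99.5 ± 3.12 CPM in NC, with overlap of BNPMT and SEN. Its log2 change in BNPMT against SEN was -0.44 ± 0.09 with TMM (adjusted p = 0.000337) and, when scaled by total counts, 0.07 (adjusted p = 0.461). Ak4, a mitochondrial adenylate kinase, Crabp2, a carrier of retinoic acid, and Car8, a carbonic anhydrase relative without the enzyme's activity, had BNPMT over NC ratios of 2.06, 2.07 and 2.68 and SEN over NC ratios of 2.99, 2.11 and 5.45. RGD1563601, annotated as similar to triosephosphate isomerase, averaged 5.83 ± 0.588 CPM in BNPMT, 4.91 ± 0.797 CPM in SEN and 2.37 ± 0.113 CPM in NC, and may share reads with Tpi1, which averaged 701 ± 41.6 CPM in BNPMT, 394 ± 20.3 CPM in SEN and 245 ± 3.02 CPM in NC.

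Intracellular signalling and structural genes completed the group. Rasd1, a small G protein named for its induction by dexamethasone, was at 4.42, 4.07 and 5.96 CPM in BNPMT libraries, 21.2, 21.4 and 19.9 CPM in SEN libraries and 2.12, 2.2 and 2.27 CPM in NC libraries, without overlap (log2 change of BNPMT against SEN -2.61 ± 0.12, adjusted p = 1.91e-10). Klhl40, a protein that stabilizes thin filaments of skeletal muscle, was at 29.6, 28.8 and 28.3 CPM in BNPMT libraries, 28.9, 28.4 and 34.8 CPM in SEN libraries and 5.85, 6.45 and 5.44 CPM in NC libraries. Doc2a, a calcium sensor of vesicle release known from neurons, was at 2.61, 2.05 and 2.55 CPM in BNPMT libraries, 2.27, 2.34 and 1.58 CPM in SEN libraries and 0.406, 0.346 and 0.454 CPM in NC libraries. BNPMT and SEN overlapped for both genes, at 4.88 and 5.19 times NC for Klhl40 and 5.98 and 5.14 times NC for Doc2a. Their log2 changes in BNPMT against SEN were -0.59 ± 0.09 for Klhl40 (adjusted p = 2.13e-05, and 0.357 with total counts) and -0.28 ± 0.20 for Doc2a (adjusted p = 0.219). Hmga1, an architectural protein of chromatin, averaged 611 ± 24.6 CPM in BNPMT, 655 ± 26.4 CPM in SEN and 245 ± 10.6 CPM in NC. Its paralog Hmga2 was lowest in SEN, at 162 ± 5.12 CPM in BNPMT, 51.1 ± 3.29 CPM in SEN and 101 ± 3.81 CPM in NC. Higd1a, a hypoxia-inducible protein of the mitochondrial inner membrane, averaged 90.6 ± 11.7 CPM in BNPMT, 114 ± 7.41 CPM in SEN and 39.5 ± 0.566 CPM in NC. Foxq1, a forkhead transcription factor, Rem2, a GTPase that inhibits voltage-gated calcium channels, and Tmem88, an inhibitor of Wnt signalling, had BNPMT over NC ratios of 2.08, 2.59 and 2.78 and SEN over NC ratios of 4.80, 6.00 and 4.12.

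**Figure D3:**
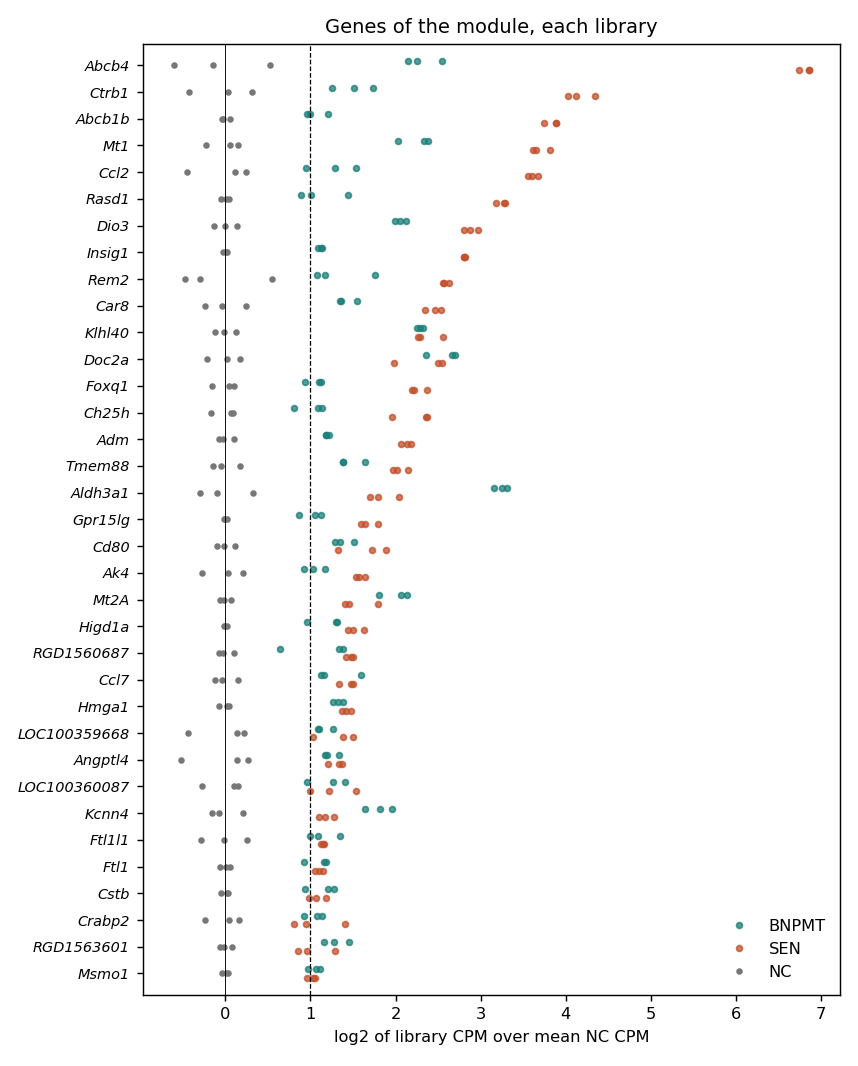
Log2 of each library's CPM over the mean NC CPM, for each of the 35 genes (rows) and the 9 libraries (points, by group). The BNPMT and SEN points lie right of the NC points in every row, and SEN points lie farthest right for the rows of Abcb4, Ctrb1, Abcb1b, Mt1 and Ccl2.

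The rule did not compare BNPMT with SEN directly, but the same libraries were used and the rule shaped this comparison. It set a floor for both groups and asked for SEN at 2 times NC or more, so genes low in SEN could not enter. Among protein-coding genes at 2 CPM or more in both groups, 7.18% reached 2 times NC in SEN and 1.46% in BNPMT. The shares over all genes include genes low in SEN. The counts beside them are therefore a description of the 35 genes and not a test of them as a group. With TMM 1 of the 35 genes was higher in BNPMT, 30 were lower and 4 did not pass, against 40.7% higher and 39.9% lower over all 14956 genes tested. With total counts 3 were higher, 17 lower and 15 did not pass, against 57.3% higher and 25.8% lower over all genes. With the length trend taken out (each library's trend of gene levels with transcript length removed) 2 were higher and 29 lower, against 51% and 32%. The median log2 change of the 35 genes was -0.81 with TMM and -0.31 with total counts, beside 0.02 and 0.52 over all genes. The change of scale moves every gene by nearly the same amount, so the gap between these medians had to be alike on both scales. The call was the same on both scales for 20 genes: Aldh3a1 was higher, 17 were lower, and Doc2a and RGD1563601 did not pass. In CPM, 18 genes had every BNPMT library below every SEN library and 3 (Aldh3a1, Kcnn4 and Mt2A) every BNPMT library above, against 25.2% and 57.3% of all genes, and 14 overlapped. The 17 lower on both scales ran from Abcb4 (-4.99 with TMM, -4.48 with total counts) to Higd1a (-0.83 with TMM, -0.33 with total counts). Over 17 alternatives the adjusted p of Aldh3a1 ran from 1.21e-07 to 0.000423, that of Kcnn4 from 0.000869 to 0.781 and that of Mt2A from 0.00114 to 1. For Ftl1, Msmo1, Ccl7, Cstb and Klhl40 the value with total counts was the highest of the 17, and the lowest ran from 1.55e-18 for Msmo1 to 0.000174 for Ccl7.

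**Figure D4:**
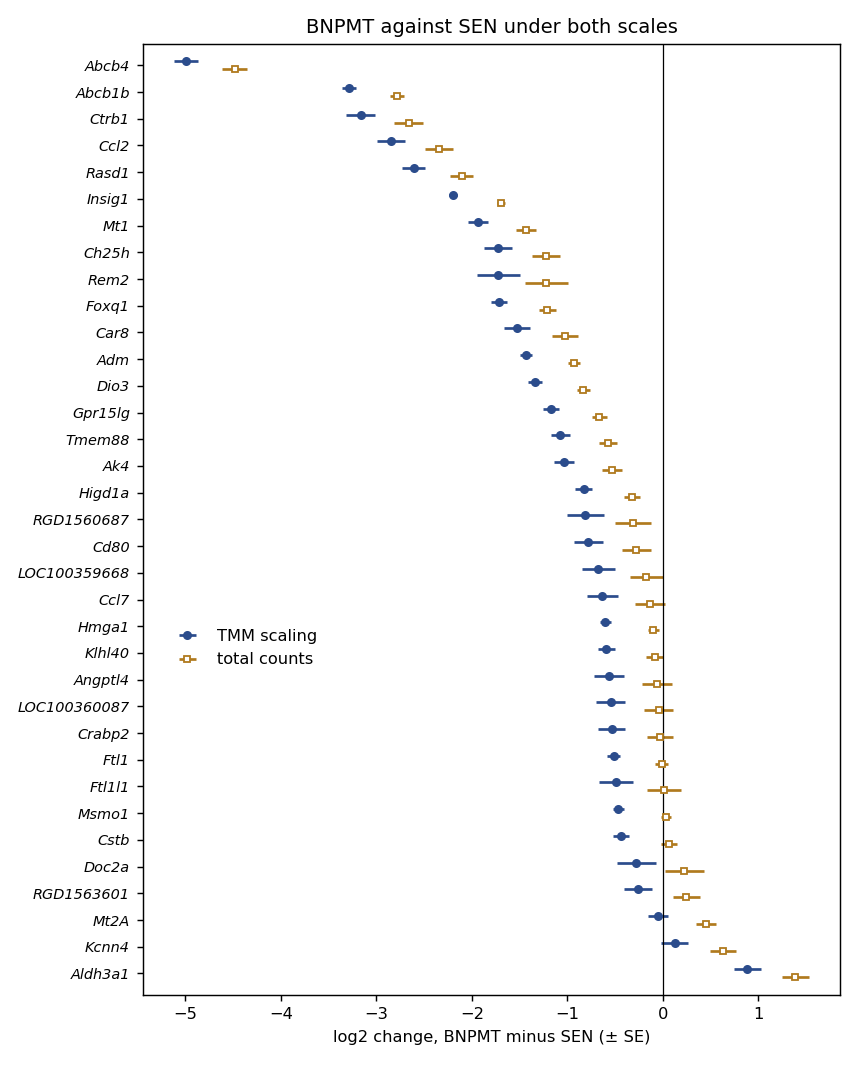
Log2 change of BNPMT minus SEN with its SE for the 35 genes, with TMM scaling (filled circles) and total counts (open squares). Abcb4 is lowest at -4.99 with TMM and Aldh3a1 highest at 0.88, and the rows from Hmga1 to Cstb lie close to 0 with total counts.

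Lists of known pathways place these genes among others. Of 13 lists of roles 5 held any of the 35, and 24 genes were in none. The antioxidant and xenobiotic list held 5 (Ftl1, Aldh3a1, Abcb1b, Mt1 and Mt2A). Of its 80 tested genes 26 were higher and 33 lower in BNPMT than in SEN with TMM, and 43 and 23 with total counts. For this comparison the shares over all genes were 40.7% higher and 39.9% lower with TMM, and 57.3% and 25.8% with total counts. The counts of BNPMT against SEN for the other lists below are to be read beside these shares. Against NC, 48 of the 80 were higher and 12 lower in BNPMT, and 48 were higher and 15 lower in SEN (with total counts 52 and 11 in BNPMT, 39 and 25 in SEN). The 5 genes of the group count among the higher ones because the rule chose them so. Without them 43 of 75 were higher and 12 lower in BNPMT, and 43 higher and 15 lower in SEN (with total counts 47 and 11 in BNPMT, 34 and 25 in SEN). Over all genes 26.3% were higher and 26.5% lower in BNPMT than in NC with TMM, and 30.2% and 22.5% with total counts. In SEN against NC 37.6% were higher and 38.5% lower with TMM, and 24.5% and 56.9% with total counts. The list of chemokines, cytokines and growth factors held 4 (Ccl2, Ccl7, Angptl4 and Adm), and of its 103 tested genes 28 were higher and 59 lower in BNPMT than in SEN (39 and 48 with total counts). The list of p53 targets held Abcb1b and Kcnn4, and of its 77 tested genes 20 were higher and 48 lower in BNPMT than in SEN (30 and 37 with total counts). The list of ion channels held Kcnn4, with 18 higher and 39 lower of 83 (30 and 26 with total counts), and that of lipid metabolism Ch25h, with 42 higher and 44 lower of 106 (57 and 36 with total counts).

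Pathways of the deposited KEGG annotation were looked up after the values were seen. Mineral absorption held 7 of the genes, the metallothioneins and the ferritin light chains, and of its 42 tested genes 8 were higher and 29 lower in BNPMT than in SEN (11 and 20 with total counts). Ferroptosis held the 5 ferritin light chains, with 10 of 44 tested genes higher and 30 lower (17 and 17 with total counts). The p53 signaling pathway held none of the 35, with 24 of 70 higher and 37 lower (35 and 25 with total counts). Steroid biosynthesis held Msmo1, with 11 of 18 tested genes higher and 5 lower in BNPMT than in SEN (13 and 3 with total counts). ABC transporters held Abcb4 and Abcb1b, with 13 of 37 higher and 15 lower (22 and 10 with total counts). Over all genes 40.7% were higher and 39.9% lower in BNPMT than in SEN with TMM, and 57.3% and 25.8% with total counts.

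Transcript length went with membership. The 35 genes had a median length of 1567 bases, as implied by the deposited FPKM values, against 3358 bases over 12005 protein-coding genes at 2 CPM or more in any group, and 12 were shorter than 1000 bases. Across 11271 genes the Spearman correlation of the difference with length was -0.59 for BNPMT minus NC and -0.03 for SEN minus NC. With each library's trend with length taken out, an alternative chosen after seeing the data, 27 genes met the rule, of which 18 were among the 35. These 18 had a median length of 2960 bases and included Abcb4, Abcb1b, Aldh3a1, Dio3, Insig1, Klhl40, Mt1 and Mt2A. The 17 that no longer met it had a median length of 916 bases and included Ftl1 with its 4 copies, Ccl2, Ccl7, Cstb, Msmo1 and Adm. The part of length in the BNPMT over NC ratios of single genes was not tested.

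**Figure D5:**
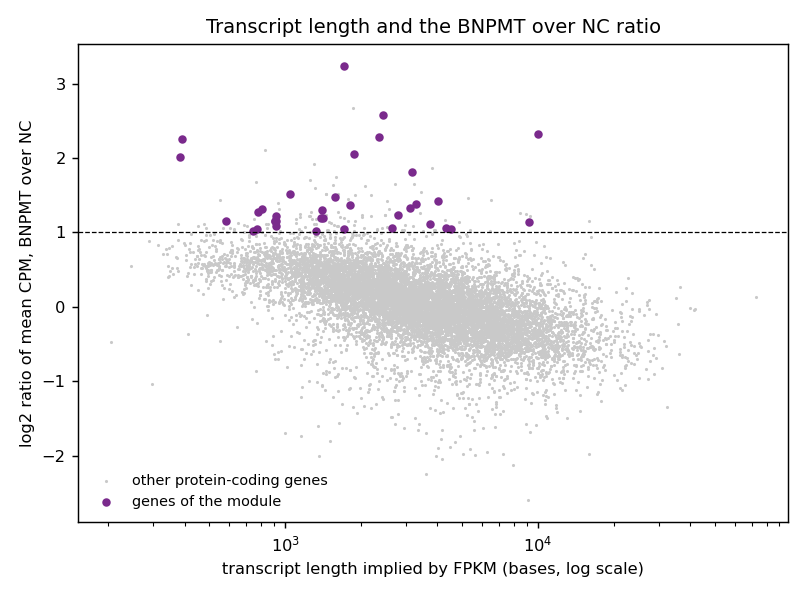
Log2 ratio of mean CPM of BNPMT over NC (vertical axis) against the transcript length implied by FPKM (bases, log scale), with the 35 genes as large points and other protein-coding genes as small points. Shorter genes lie higher. The Spearman correlation of -0.59 in the text is over another set of 11271 genes and not over the points shown. The 35 genes lie above the dashed line at 2 times NC, most of them left of the median of 3358 bases over expressed genes.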

How the data were processed

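Poly(A) RNA of 9 libraries was measured. The authors deposited whole-number counts per gene and FPKM values. Per the submitters' processing notes, fastp, HISAT2, HTSeq and the build mRatBN7.2 were used, with no versions. For annotation and strandedness: not given in the sources used here. Reads of overlapping or antisense genes cannot be told apart. Each deposited FPKM value equalled the count over length and library total, which gave the lengths.

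Group means of CPM chose the genes, whose members and lists were chosen with earlier results of these data known. Tests were made with edgeR 4.0.16 in R 4.3.3 (quasi-likelihood F test, 3 groups, TMM, filterByExpr, Benjamini-Hochberg over 14956 genes, threshold 0.05), and adjusted p-values are from it. The script was tested on simulated data. All 35 genes passed the filter. DESeq2 1.42.0, other scalings and filters, a replicate block and left-out libraries were alternatives. No pair of libraries was a duplicate (chi-square per degree of freedom 3.41 to 31.6 within groups).

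Genes named in detail were the 8 with the largest smaller ratio, the 8 most abundant, up to 6 most changed each way without overlap, up to 4 of each role list, the 4 nearest 0 in BNPMT against SEN at 10 CPM or more, and the 3 on each side of the rule's edge, with placeholder names left out. These parts gave 22 genes. The others of the 35 and related genes were named after their values were seen. A further related gene is not reported here.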

Additional observations from a re-analysis of the deposited data

How the results depend on the processing

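In BNPMT against SEN total counts alone gave 3857 genes lower against 5969 with TMM, and of the 35 genes 3 higher (against 1) and 17 lower (against 30), with a median of -0.31 against -0.81; in SEN against NC they gave 3667 genes higher against 5628. The number of genes in the rule was 13 when every BNPMT and SEN library had to reach 2 times the highest NC library, against 35, and 31 to 38 without 1 library, with 23 in the rule each time. It was 45 with TMM, 43 with DESeq2 size factors and 32 without BNPMT 1 and SEN 1, with 31, 27 and 28 of the 35 among them. With TMM Ak4, Ch25h, Gpr15lg and Rem2 missed the rule. With DESeq2 size factors these and Abcb1b, Crabp2, Foxq1 and Msmo1 missed it. Genes that met the rule with TMM but not with total counts were Aldoa, Arhgap22, Dlk1, Gpi, Ly96, Pla2g7, Ripor2, Scin, Tmem106a, Tpi1, LOC120102993, LOC500959, MGC105649 and RGD1560402. All of these also met it with DESeq2 size factors, as did Rragd and Slfn2. Of the 35 genes 2 were higher in BNPMT than in SEN with the length trend taken out, and 2 without BNPMT 1 and SEN 1. Over all genes 7633 and 6109 were higher in these settings.

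With total counts 6 of the 35 genes changed sign in BNPMT against SEN: Cstb at 0.066, Ftl1l1 at 0.010, Msmo1 at 0.035 and Mt2A at 0.45, and Doc2a at 0.22 and RGD1563601 at 0.24, which passed the test on neither scale. Mt2A also changed sign with the length trend taken out (0.22), without BNPMT 1 and SEN 1 (0.19), and, without a call, in 3 other alternatives (no filter, and without SEN 1 or BNPMT 1 alone). The cause of these changes was not tested. Of 595 values for single genes under the alternatives, 567 kept direction and side of the threshold, 16 lost the call, 1 gained it and 11 changed sign.

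Samples with the same number did not deviate together (correlations -0.61 to -0.25 between BNPMT and SEN, 0.02 to 0.23 between BNPMT and NC, -0.12 to 0.24 between SEN and NC), so the numbers were not taken as pairs. With the replicate block 1 of the 35 genes was higher and 30 lower in BNPMT than in SEN, the same counts as without it, and the median was -0.83. Over all genes 5973 were higher and 5869 lower with the block. Without 1 library 1 of the 35 genes was higher and 29 to 30 were lower, with medians from -0.88 to -0.71. Over all genes 5922 to 6138 were then higher and 5834 to 6161 lower. Counts limit the precision of the 12 genes under 10 CPM in every group.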

Other observations

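The 9 genes that met the same numbers but were left out by name included known targets of p53 and senescence genes. Cdkn1a, the cyclin-dependent kinase inhibitor, averaged 276 ± 11.2 CPM in BNPMT, 1061 ± 45.5 CPM in SEN and 133 ± 1.91 CPM in NC (SD, n = 3 each). Mdm2, the ubiquitin ligase of p53, averaged 170 ± 3.5 CPM in BNPMT, 824 ± 21.6 CPM in SEN and 70.8 ± 2.85 CPM in NC, and Ccng1, a cyclin induced by p53, 535 ± 24.9 CPM in BNPMT, 623 ± 64.7 CPM in SEN and 252 ± 12.3 CPM in NC. Mmp3, a matrix protease, averaged 86.8 ± 4.93 CPM in BNPMT, 101 ± 2.64 CPM in SEN and 13.6 ± 0.514 CPM in NC. Cxcl1, a chemokine for neutrophils, averaged 6.99 ± 0.825 CPM in BNPMT, 107 ± 3.53 CPM in SEN and 2.65 ± 0.370 CPM in NC. The others were Tnfrsf22, Itgax, Hist1h4b and Mrps6.

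Another 5 genes annotated as non-coding met the numbers: Bc1, LOC102550105, LOC120095280, LOC120099382 and LOC680254. LOC120099382 averaged 6.07 ± 0.473 CPM in BNPMT, 26.5 ± 2.04 CPM in SEN and 2.65 ± 0.540 CPM in NC. Of the genes within 2 places of a member in the RefSeq order, only other members met the rule. These were Ccl2 with Ccl7, Mt1 with Mt2A and Abcb4 with Abcb1b. Bax, next to Ftl1, averaged 178 ± 19.9 CPM in BNPMT, 111 ± 1.54 CPM in SEN and 91.2 ± 3.87 CPM in NC, and Gys1, on the other side of Ftl1, 89.3 ± 3.36 CPM in BNPMT, 21.4 ± 1.02 CPM in SEN and 78.8 ± 1.97 CPM in NC. Kdm6b, next to Tmem88, averaged 31.1 ± 6.57 CPM in BNPMT, 207 ± 20.7 CPM in SEN and 59.7 ± 4.70 CPM in NC.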
